A study of Mus musculus with 4 samples.

Results

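Lgr5 is described here with 9 further genes that mark the stem cells at the base of intestinal crypts: Lgr4, Ascl2, Olfm4, Smoc2, Prom1, Tnfrsf19, Cdca7, Aqp4 and Msi1. They were chosen by gene symbol, with earlier results of these data known. The members were every probe set annotated to one of these symbols, a probe set being the group of array probes summarised into 1 value. The rule found 20 probe sets of 45037 without controls, and they belonged to 9 of the 10 genes. Cdca7, a cell cycle gene induced by MYC, had no probe set under its name in the platform annotation used and was not analysed here. Lgr5, Lgr4 and Smoc2 had 2 probe sets each. Ascl2, Tnfrsf19, Aqp4 and Msi1 had 3 each, and Olfm4 and Prom1 had 1 each.

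RNA from mouse colon adenoma organoids on a C57BL/6 background was measured on 4 Affymetrix arrays. The first group was 2 samples labelled Gata6 null/Apc null (VillinCreERT2 Gata6 fl/fl Apc fl/fl), and the second was 2 samples labelled Apc null (VillinCreERT2 Gata6+/+ Apc fl/fl). Both groups therefore carried the Apc deletion and the Cre transgene, which the Villin promoter drives in intestinal epithelium and tamoxifen activates. The labels add a batch letter, A or B, shared by 1 sample of each genotype, without saying what it marks. All cultures had been kept for 7 days in medium with EGF at 50 ng/ml, with a Rock inhibitor at 10 µM at passaging, and the medium listed in the labels names no R-spondin. The series text calls the samples biological replicates. The labels give no age of the mice and do not say whether the arrays of a group came from separate mice.

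Crypt base stem cells are the dividing cells that renew the intestinal epithelium, and Wnt signalling keeps them undifferentiated. LGR4 and LGR5 are receptors for R-spondins, which hold back the ubiquitin ligases ZNRF3 and RNF43 and so leave more Wnt receptors on the cell surface. ASCL2 is a transcription factor that acts with Wnt signalling in these cells. In Apc mutant adenomas of the mouse, where Wnt signalling runs without its brake, cells with Lgr5 are known as the stem cell fraction.

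Gata6 itself read higher where the labels call it null. Its brighter probe set gave 9.37 and 9.40 log2 units in the samples labelled Gata6 null/Apc null (batch A, then batch B), against 8.89 and 8.61 in the samples labelled Apc null. The difference of 0.64 (SE 0.19) passed with the batch letter as a block alone (limma adjusted p = 0.418, and 0.0392 with the block). Apc gave 8.34 and 8.14 in the samples labelled Gata6 null/Apc null, against 8.35 and 8.34 in the samples labelled Apc null. Where the probes of these 2 genes lie relative to the deleted parts is not known here. Their values are therefore no test of the genotypes, which are taken from the labels throughout. The epithelial marker Epcam read 11.3 to 11.5 on all 4 arrays. Of 8 fibroblast markers 6 were too dim to be tested, among them the collagen genes Col1a1, Col1a2 and Col3a1, and of 7 immune markers 4 were too dim, among them the pan-leukocyte marker Ptprc at 3.07 to 3.25. Other immune markers were not dim. The lysozyme gene Lyz2 read 6.51 and 6.16 in the samples labelled Gata6 null/Apc null, against 10.36 and 11.14 in the samples labelled Apc null. The macrophage marker Cd68 read 4.94 and 7.23 in the samples labelled Gata6 null/Apc null, against 5.92 and 7.57 in the samples labelled Apc null. The mean level of the 7 immune markers was 4.30 to 4.50 in the samples labelled Gata6 null/Apc null, against 4.98 to 5.33 in the samples labelled Apc null. Lyz2 weighed most in that mean, with a difference of -4.41 beside -0.66 for Cd68. Csf1r, the other immune marker tested, differed by -0.04, and the dim Ptprc by 0.11. The part of immune cells in the results below was not tested. Pairwise correlations of the 4 arrays over probe sets lay between 0.963 and 0.979. In bulk RNA, fewer cells of a type and less RNA per cell cannot be told apart. Values are RMA log2 expression, differences are samples labelled Gata6 null/Apc null minus samples labelled Apc null, and, beyond choosing the brightest probe set of each gene, levels are not compared between probe sets. A probe set is called dim where its mean lies below 4.45 log2 units, the 40th percentile over all of them. Pairs of values are given as batch A, then batch B.

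Read over all 20 probe sets, the marker set did not move as one. Lgr5 and Aqp4 were several-fold lower in the samples labelled Gata6 null/Apc null and Prom1 was slightly lower. Tnfrsf19 and Smoc2 read higher there, though neither passed either fit as a gene. The Tnfrsf19 difference was 2.63 within batch A and 0.14 within batch B. Lgr4 and Ascl2 differed little at their brighter probe sets, and Olfm4 was dim throughout. Of the 9 genes, 8 passed the filter on dim genes, and the values of their chosen probe sets lay above the filter level on every array. Without a batch term, 0 of these 8 passed a limma adjusted p of 0.05, where 0.648% of 11874 genes did. At an unadjusted limma p under 0.05, 3 of the 8 were called, all lower, against 7.97% of all genes, or 3.55% lower. With the batch as a block, which sets each array against the array of the other genotype in its batch, 3 of the 8 passed and all 3 were lower: Lgr5, Prom1 and Aqp4. The share of all genes passing that fit was 6.88%, with 2.97% lower. Since the members were chosen with earlier results of these data known, these counts are a description. The groups did not overlap for 6 of the 8 genes, 3 higher and 3 lower, against 32% of all genes, 14.7% higher and 17.3% lower. The median difference of the 8 genes was -0.22, beside -0.03 over all genes tested, and single genes ran from -3.24 for Aqp4 to 1.39 for Tnfrsf19.

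**Figure D1:**
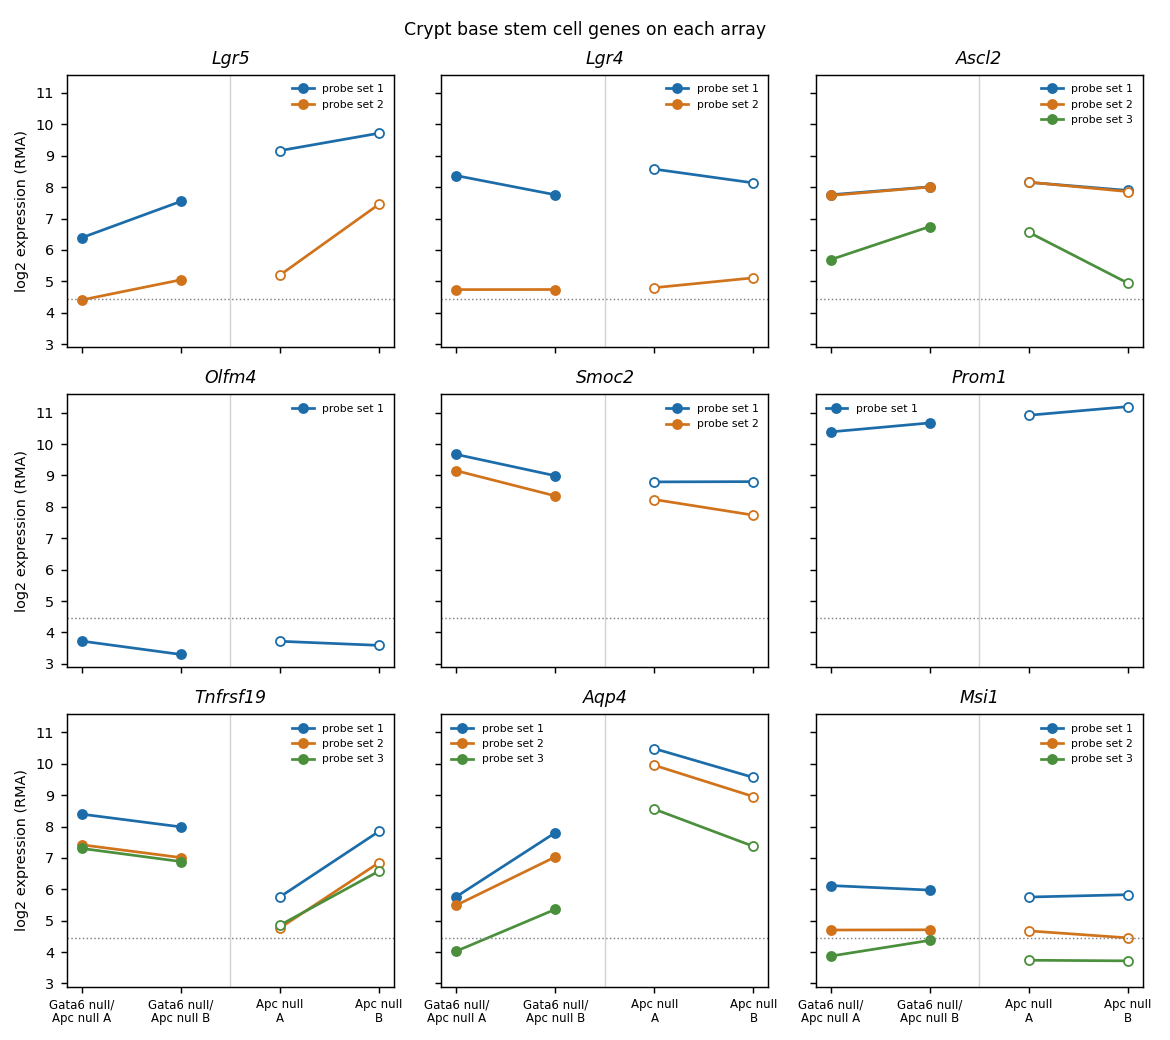
RMA log2 expression of each member probe set (vertical axis) on the 4 arrays (horizontal axis), with 1 panel per gene. Filled points are samples labelled Gata6 null/Apc null, open points are samples labelled Apc null, lines join the 2 arrays of a group, and the dotted line is the filter level of 4.45. Both Lgr5 probe sets and all 3 Aqp4 probe sets lie lower in the filled points, while Tnfrsf19 is low on the Apc null sample of batch A alone.

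Lgr5, the receptor that defines these stem cells, read 6.39 and 7.55 in the samples labelled Gata6 null/Apc null. The samples labelled Apc null read 9.16 and 9.72. Both Gata6 null/Apc null values lay below both Apc null values, and the gap between the nearest arrays was wider than the gap within either group. The difference of -2.47 (SE 0.46) is 5.55-fold lower, and it was -2.77 within batch A and -2.17 within batch B. It ranked 19 among the lowest differences of the 11874 genes. The limma adjusted p was 0.161 without a batch term and 0.00142 with the batch as a block.

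The second Lgr5 probe set was dimmer and less steady. It read 4.41 and 5.05 in the samples labelled Gata6 null/Apc null, against 5.20 and 7.46 in the samples labelled Apc null. The 4.41 was below the filter level, so the difference within batch A depends on the array floor. There was no overlap, but the nearest arrays were close, and the Apc null sample of batch B stood above the other 3. Its difference was -1.60 (SE 0.77), with -0.79 within batch A and -2.41 within batch B. It was -0.47 without the Apc null sample of batch B and -2.73 without that of batch A. Fitted over all 45037 probe sets, it did not pass (limma adjusted p = 1.00, and 0.0604 with the block). Taken as the mean of both probe sets, Lgr5 differed by -2.04 (limma adjusted p = 0.413).

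Lgr4, the more widely expressed R-spondin receptor, showed no such gap. Its brighter probe set read 8.37 and 7.76 in the samples labelled Gata6 null/Apc null, against 8.57 and 8.14 in the samples labelled Apc null. The groups overlapped. The difference of -0.29 (SE 0.32, limma adjusted p = 1.00) was within the spread of the arrays. Leaving out the Gata6 null/Apc null sample of batch B gave 0.013. The other Lgr4 probe set read 4.74 to 5.11 on the 4 arrays, close to the filter level.

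The third receptor of the family, Lgr6, is not a member of the set but lay opposite to Lgr5. It read 6.07 and 5.94 in the samples labelled Gata6 null/Apc null, against 4.08 and 4.0 in the samples labelled Apc null. The groups stood clearly apart and each pair of arrays was close. Lgr6 rose by 1.96 (SE 0.16, limma adjusted p = 0.0253, and 0.00184 with the block), with 1.99 within batch A and 1.94 within batch B. Its mean in the samples labelled Apc null, 4.04, was below the filter level, so Lgr6 passed the filter only through the other group. The call and the size of this rise therefore depend on the array floor. The call was lost without the Apc null sample of batch A (adjusted p = 0.125) or of batch B (0.119). The 3 receptors thus differed by -2.47 for Lgr5, -0.29 for Lgr4 and 1.96 for Lgr6, each on its own probe set.

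The rest of the R-spondin module was a list of 11 genes that includes Lgr6. Of its 8 genes tested, 1 rose without the block, which was Lgr6, whose call depends on the array floor. With the block 2 rose, Lgr6 and Znrf3, and 1 fell. Over all genes tested, 0.648% passed without the block and 6.88% with it. The list median was -0.02. Znrf3, the ligase that R-spondins and LGR receptors hold back, read 8.29 and 8.78 in the samples labelled Gata6 null/Apc null, against 6.59 and 7.24 in the samples labelled Apc null. Its groups did not overlap, and its difference of 1.62 passed with the block alone (limma adjusted p = 0.219, and 0.00377 with the block). Fzd5, a Wnt receptor, read 5.79 and 5.92 in the samples labelled Gata6 null/Apc null, against 7.99 and 7.09 in the samples labelled Apc null. It was lower within both batches, with a difference of -1.68 (limma adjusted p = 0.233, and 0.0220 with the block). Rnf43, the partner ligase, differed by 0.31, and the Wnt co-receptors Lrp5 and Lrp6 by -0.30 and -0.03, none past either test. The R-spondin genes Rspo1, Rspo2 and Rspo3 were dim and not tested. Rspo4 read 5.20 to 5.34 on the 4 arrays and was tested, with a difference of -0.02 that passed neither fit.

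Aqp4, a water channel enriched in Lgr5+ crypt cells of the mouse, had the largest difference of the set. Its brightest probe set read 5.77 and 7.81 in the samples labelled Gata6 null/Apc null. The samples labelled Apc null read 10.48 and 9.56. The groups did not overlap, but the 2 samples labelled Gata6 null/Apc null were 2.04 apart. The difference of -3.24 (SE 0.75) is 9.42-fold lower and ranked 8 among the lowest of all genes tested. It was -4.72 within batch A, a 26.3-fold gap, and -1.76 within batch B, a 3.38-fold gap. The limma adjusted p was 0.265 without a batch term and 0.0350 with the block. It was 0.0453 when the fit left out the Gata6 null/Apc null sample of batch B, which gave a difference of -4.26. Leaving out that of batch A gave -2.22.

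The other Aqp4 probe sets gave nearly the same picture. Their differences were -3.19 and -3.26, with -4.46 and -4.52 within batch A and -1.92 and -2.01 within batch B. The last of these probe sets read 4.03 in the Gata6 null/Apc null sample of batch A, below the filter level, so its -4.52 depends on the array floor. All 3 passed over all probe sets with the block, at limma adjusted p-values of 0.0210, 0.0127 and 0.0126, and none passed without it. The batches moved opposite ways in the genotypes. From batch A to batch B the brightest set differed by 2.04 in the samples labelled Gata6 null/Apc null and by -0.92 in the samples labelled Apc null. Whether the genotype difference itself differs between batches could not be tested with 1 array per cell of the design. The paralog Aqp1, a further water channel, was lower as well, at 5.23 and 4.10 in the samples labelled Gata6 null/Apc null, against 6.21 and 5.43 in the samples labelled Apc null. It passed with the block alone (difference -1.16, limma adjusted p = 0.677, and 0.0178 with the block), and its 4.10 was below the filter level.

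Prom1, which encodes the membrane glycoprotein prominin-1 (CD133), had nearly the same difference in both batches. It read 10.39 and 10.67 in the samples labelled Gata6 null/Apc null, against 10.92 and 11.19 in the samples labelled Apc null. Both values were below those of the other group, by less than for Lgr5. The difference of -0.53 (SE 0.16) is 1.44-fold lower, at -0.53 within batch A and -0.52 within batch B. It passed with the block alone (limma adjusted p = 0.430, and 0.0104 with the block). Its paralog Prom2 read 5.94 and 6.87 in the samples labelled Gata6 null/Apc null, against 4.55 and 4.71 in the samples labelled Apc null. That was a difference of 1.78 in the other direction, past the threshold with the block alone (limma adjusted p = 0.188, and 0.0103 with the block).

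**Figure D2:**
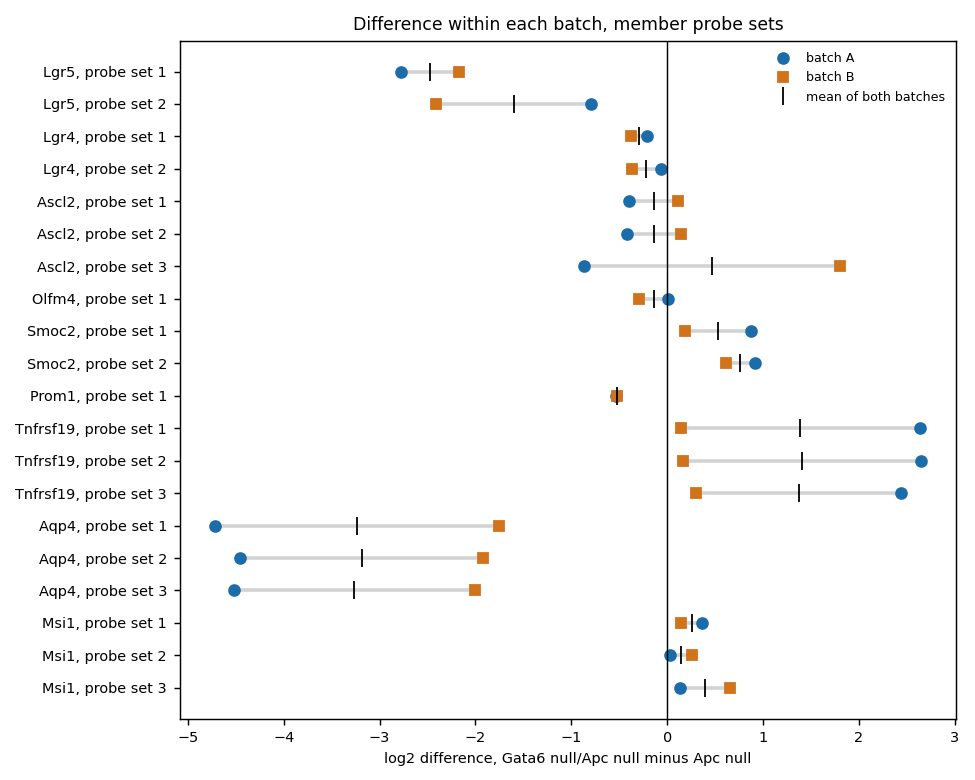
Log2 difference between the sample labelled Gata6 null/Apc null and the sample labelled Apc null (horizontal axis) for each of the 20 member probe sets (rows), within batch A (circles) and within batch B (squares), with the mean as a bar. The 3 probe sets of Tnfrsf19 lie close together and so do those of Aqp4, with a wide gap between batches, while Prom1 has -0.53 and -0.52.

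Tnfrsf19, also called Troy, is a receptor of the TNF family and a Wnt target of crypt base cells. Its brightest probe set read 8.39 and 7.99 in the samples labelled Gata6 null/Apc null, against 5.76 and 7.85 in the samples labelled Apc null. A single array, Apc null of batch A, stood far below the other 3. The difference of 1.39 (SE 0.72) did not pass (limma adjusted p = 0.853, and 0.223 with the block). It was 2.63 within batch A, a 6.21-fold gap, and 0.14 within batch B, and it was 0.34 without the Apc null sample of batch A, while leaving out the one of batch B gave 2.43. The other probe sets differed by 1.40 and 1.37 and had the same low array, so the low value was not that of 1 probe set.

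Smoc2, a secreted calcium-binding matrix protein, read higher in the samples labelled Gata6 null/Apc null. Its brighter probe set read 9.67 and 8.99 there, against 8.79 and 8.80 in the samples labelled Apc null. There was no overlap, and the Gata6 null/Apc null sample of batch A stood well above the rest. Its difference of 0.53 (SE 0.28) did not pass (limma adjusted p = 0.853, and 0.166 with the block). The other probe set read 9.15 and 8.35 in the samples labelled Gata6 null/Apc null, against 8.23 and 7.73 in the samples labelled Apc null, again without overlap. It differed by 0.77, with 0.92 within batch A and 0.61 within batch B, and passed over all probe sets with the block alone (limma adjusted p = 1.00, and 0.0341 with the block).

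Ascl2, the transcription factor of the set, differed little at 2 of its 3 probe sets. The brightest read 7.76 and 8.01 in the samples labelled Gata6 null/Apc null, against 8.15 and 7.90 in the samples labelled Apc null. The groups overlapped, and the sign turned between batches, at -0.40 within batch A and 0.11 within batch B. The difference was -0.14 (SE 0.24, limma adjusted p = 1.00). Its name marks a probe set whose sequence may be shared with other transcripts. The probe set without that mark differed by -0.14 as well. The dimmest read 5.69 and 6.75 in the samples labelled Gata6 null/Apc null, against 6.56 and 4.94 in the samples labelled Apc null, with a difference of 0.47 whose sign also turned between batches.

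Msi1 and Olfm4 gave little signal. Msi1, an RNA-binding protein of stem and progenitor cells, read 6.12 and 5.98 in the samples labelled Gata6 null/Apc null at its brightest probe set, against 5.75 and 5.83 in the samples labelled Apc null. The groups did not overlap, but the difference of 0.26 (SE 0.21, limma adjusted p = 1.00) was small beside its error, and the other 2 probe sets read 3.72 to 4.71. The paralog Msi2 differed by 0.27 (limma adjusted p = 0.893, and 0.163 with the block). Olfm4, a secreted glycoprotein and Notch target, is a strong stem cell marker of the human crypt. It read 3.72 and 3.30 in the samples labelled Gata6 null/Apc null, against 3.72 and 3.59 in the samples labelled Apc null. All 4 values were dim, and the probe set was not tested as a gene. Its difference over all probe sets was -0.14.

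Counted by probe set, 0 of the 20 passed over all probe sets without a batch term, where 0.129% of probe sets did. At an unadjusted limma p under 0.05, 5 of the 20 were called, all lower, against 4.84% of probe sets, or 2.17% lower. With the block 6 of the 20 passed, 5 lower and 1 higher, against 3.24% of probe sets, 1.39% lower and 1.85% higher. The groups did not overlap for 15 of the 20, 8 higher and 7 lower, against 28.7% of probe sets, 12.5% higher and 16.1% lower. These probe sets are not separate evidence, since those of 1 gene share its transcripts, and 3 of the 6 belonged to Aqp4.

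Promoter sequence was used for 6 of the 10 genes, in RefSeq windows of the mouse GRCm38.p6 assembly: Lgr4, Ascl2, Olfm4, Prom1, Tnfrsf19 and Cdca7. No window of Lgr5, Smoc2, Aqp4 or Msi1 was searched, so Lgr5 and Aqp4, the members with the largest differences, are not covered. The values carry no genome build, and these windows were matched by symbol. The 250 bases before each annotated start were searched on both strands for GATAA, the core that GATA factors bind, and for CTTTG, the core that TCF/LEF factors of the Wnt pathway bind. Across 32851 such windows of all genes, 22.6% held GATAA and 48.6% held CTTTG. None of the 8 windows searched for the 6 genes held GATAA, and 1 of them held CTTTG. The windows of Tnfrsf19 and Prom1 are shown because these genes differed between arrays and have 2 annotated starts each, which the probe sets do not tell apart. They are written 5′ to 3′ on the minus strand, and capitals mark the CTTTG core, read on the opposite strand. The windows are chr14:61046856-61047105 and chr14:61037988-61038237 for Tnfrsf19, and chr5:44101737-44101986 and chr5:44094769-44095018 for Prom1.
Tnfrsf19, upstream start: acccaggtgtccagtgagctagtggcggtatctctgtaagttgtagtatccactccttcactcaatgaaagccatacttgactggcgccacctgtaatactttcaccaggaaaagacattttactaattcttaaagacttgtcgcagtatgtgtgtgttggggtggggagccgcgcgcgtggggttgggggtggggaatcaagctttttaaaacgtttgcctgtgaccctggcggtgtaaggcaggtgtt
Tnfrsf19, downstream start: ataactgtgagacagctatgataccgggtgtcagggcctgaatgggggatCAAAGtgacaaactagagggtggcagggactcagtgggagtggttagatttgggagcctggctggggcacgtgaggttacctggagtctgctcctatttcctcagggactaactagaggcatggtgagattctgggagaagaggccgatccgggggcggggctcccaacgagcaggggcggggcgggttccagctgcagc
Prom1, upstream start: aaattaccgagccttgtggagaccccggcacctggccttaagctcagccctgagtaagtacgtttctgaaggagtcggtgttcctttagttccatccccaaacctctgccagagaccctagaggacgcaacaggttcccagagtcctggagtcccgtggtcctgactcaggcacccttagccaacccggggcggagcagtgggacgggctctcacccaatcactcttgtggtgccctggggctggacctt
Prom1, downstream start: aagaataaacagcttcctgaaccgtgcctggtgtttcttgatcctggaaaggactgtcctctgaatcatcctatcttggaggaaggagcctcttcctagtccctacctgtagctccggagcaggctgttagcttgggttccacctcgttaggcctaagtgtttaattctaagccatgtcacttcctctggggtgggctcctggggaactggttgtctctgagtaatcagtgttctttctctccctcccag

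The single match lay in the window of the downstream Tnfrsf19 start, with its first base at position -200 from that start. A match of 5 letters is a description of the sequence and not a binding site, and a window without one says only that these letters are not in it.

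A list of 25 other genes of crypt base cells had 20 genes tested. None passed without the block, 2 rose and 2 fell with it, where 6.88% of all genes passed, and the median difference was -0.08. Sp5, a transcription factor and direct Wnt target, had the largest. It read 9.02 and 9.73 in the samples labelled Gata6 null/Apc null, against 5.99 and 6.51 in the samples labelled Apc null. The difference was 3.13 (SE 0.36), just short of the threshold without the block (limma adjusted p = 0.0553, and 3.81e-04 with it). The sodium channel subunit gene Scn2b differed by 1.49 (limma adjusted p = 0.130, and 0.00897 with the block). On the lower side were the potassium channel gene Kcnq1 and the chloride cotransporter gene Slc12a2. Kcnq1 differed by -0.78 (limma adjusted p = 0.275, and 0.0181 with the block). Slc12a2 differed by -0.48 (limma adjusted p = 0.286, and 0.0322 with the block). Common crypt markers such as Sox9, Cd44 and Lrig1 differed by 0.10, -0.10 and -0.17, and none passed either fit. The groups of Lrig1 did not overlap, with the same -0.17 within both batches. Axin2, a Wnt target, differed by 0.46 and Ephb3, a guidance receptor of the crypt base, by -0.32, and neither passed either fit.

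Of 5 genes described for reserve stem cells, all were tested and 1 passed, with the block alone, where 6.88% of all genes passed. Mex3a, an RNA-binding protein, read 7.89 and 7.63 in the samples labelled Gata6 null/Apc null, against 7.11 and 6.54 in the samples labelled Apc null. Its difference was 0.93 (limma adjusted p = 0.480, and 0.0339 with the block). Bmi1, Hopx, Tert and Krt19 differed by -0.02, -0.06, 0.15 and -0.09. The paralogs of the members made a list of 16 genes, Lgr6 among them as in the R-spondin module, with 9 tested. Without the block 1 rose, again Lgr6, whose call depends on the array floor. With the block 2 rose, Lgr6 and Prom2, and 1 fell, Aqp1. The median of that list was -0.01.

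**Figure D3:**
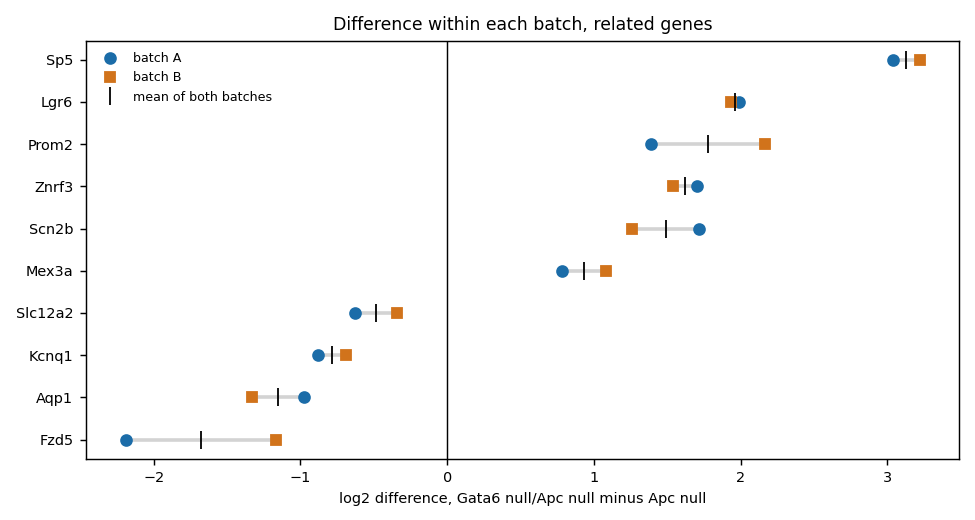
Log2 difference between the sample labelled Gata6 null/Apc null and the sample labelled Apc null (horizontal axis) for the named genes of the R-spondin module, other crypt base genes, reserve stem cell genes and paralogs (rows), within batch A (circles) and batch B (squares), with the mean as a bar. Sp5 and Lgr6 have the highest means, at 3.13 and 1.96, and Fzd5 the lowest, at -1.68.

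The genes with array profiles nearest to Lgr5 were found by Euclidean distance between values centred on each gene's mean over the 4 arrays. The search covered the genes tested, leaving out the members and predicted or clone names, such as those with Gm or Rik. In order they were Pgap1, Tm4sf1, Suox, Itga2 and St3gal6, at distances of 0.210, 0.458, 0.537, 0.634 and 0.666 log2 units. Pgap1, an enzyme that remodels GPI anchors, read 5.18 and 6.43 in the samples labelled Gata6 null/Apc null, against 8.23 and 8.54 in the samples labelled Apc null. With 4 arrays, such likeness describes these arrays and says nothing of shared control.

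Markers of differentiated cells also differed between the groups. Of 6 goblet cell markers tested 1 fell without the block and 3 with it, where 0.648% and 6.88% of all genes passed in either direction. The list median was -0.96, beside -0.03 over all genes tested. Spink4, a protease inhibitor of goblet cells, fell by 4.30 (limma adjusted p = 0.0314), Agr2 differed by -1.81 and the secretory lineage factor Atoh1 by -1.20, both past the threshold with the block alone (limma adjusted p = 0.00349 and 0.0309). Atoh1 differed by -0.56 with the Apc null sample of batch A left out, and by -1.84 with the one of batch B left out. The mean level of the 8 annotated goblet markers was 6.39 to 6.55 in the samples labelled Gata6 null/Apc null, against 7.52 to 7.83 in the samples labelled Apc null. Of 4 Paneth and deep crypt secretory markers tested 2 fell with the block and none without, with a median of -0.68. The leading one was Reg4, a secreted lectin of deep crypt secretory cells, at -2.18 (limma adjusted p = 0.142, and 0.0155 with the block). The other was the protease gene Mmp7, at -0.78 (0.845, and 0.00688 with the block). The part of these cell types in the differences of Lgr5 and Aqp4 was not tested.

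Of 8 colonocyte markers tested none passed without the block. With it 1 rose and 5 fell, where 6.88% of all genes passed and 2.97% fell. The list median difference was -0.48, beside -0.03 over all genes tested. The largest was the guanylin gene Guca2a, at -2.95 (limma adjusted p = 0.0530, and 0.00110 with the block). With the block, the carbonic anhydrase genes Car1 (-1.73) and Car2 (-0.42), the fatty acid-binding gene Fabp2 (-0.78) and the adhesion gene Ceacam1 (-0.26) also fell. Their limma adjusted p-values with the block were 3.81e-04, 0.0232, 0.0270 and 0.0463. The gene that passed upwards was the sodium-proton exchanger gene Slc9a3, which read 5.99 and 4.77 in the samples labelled Gata6 null/Apc null, against 3.80 and 3.88 in the samples labelled Apc null. Its difference of 1.53 (limma adjusted p = 0.348, and 0.0381 with the block) was 0.92 without the Gata6 null/Apc null sample of batch A, and leaving out the one of batch B gave 2.14. Slc9a3 was dim in the samples labelled Apc null and Fabp2 in the samples labelled Gata6 null/Apc null. Each passed the filter only through the group where it read higher. The calls and the sizes of both differences therefore depend on the array floor. Of 7 enteroendocrine markers 1 fell with the block alone, Insm1 at -1.91 (limma adjusted p = 0.638, and 0.0470 with the block). Insm1 read 3.90 and 3.49 in the samples labelled Gata6 null/Apc null, below the filter level, against 6.73 and 4.49 in the samples labelled Apc null. It passed the filter mainly through the Apc null sample of batch A, without which its difference was -0.79, and without that of batch B it was -3.03. The call and the size of the Insm1 difference therefore also depend on the floor. Of 2 tuft cell markers tested 1 rose with the block alone, the actin-binding gene Avil at 2.67 (limma adjusted p = 0.140, and 0.00467 with the block). It differed by 2.02 without the Apc null sample of batch A, and leaving out the one of batch B gave 3.32. The other tuft marker tested, Sh2d6, differed by -0.01. Of the 7 annotated tuft markers 5 were too dim to be tested, among them Dclk1, Trpm5 and Pou2f3. Of 6 epithelial markers 1 fell with the block alone, the intestinal homeobox gene Cdx2 at -1.57 (limma adjusted p = 0.228, and 0.00545 with the block).

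None of the 15 cell cycle genes tested passed either fit, with a median of -0.14. The smallest p was that of Cdt1, at -0.32 (limma adjusted p = 1.00). None of 2 fibroblast or 3 endothelial markers tested passed either fit, with medians of -0.10 and 0.15 and with Pdgfrb (-0.13) and Pecam1 (0.15) having the smallest p. Of 3 immune markers tested 1 fell, the lysozyme gene Lyz2 by 4.41 (limma adjusted p = 0.0243), at a probe set whose name marks possible shared sequence.

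**Figure D4:**
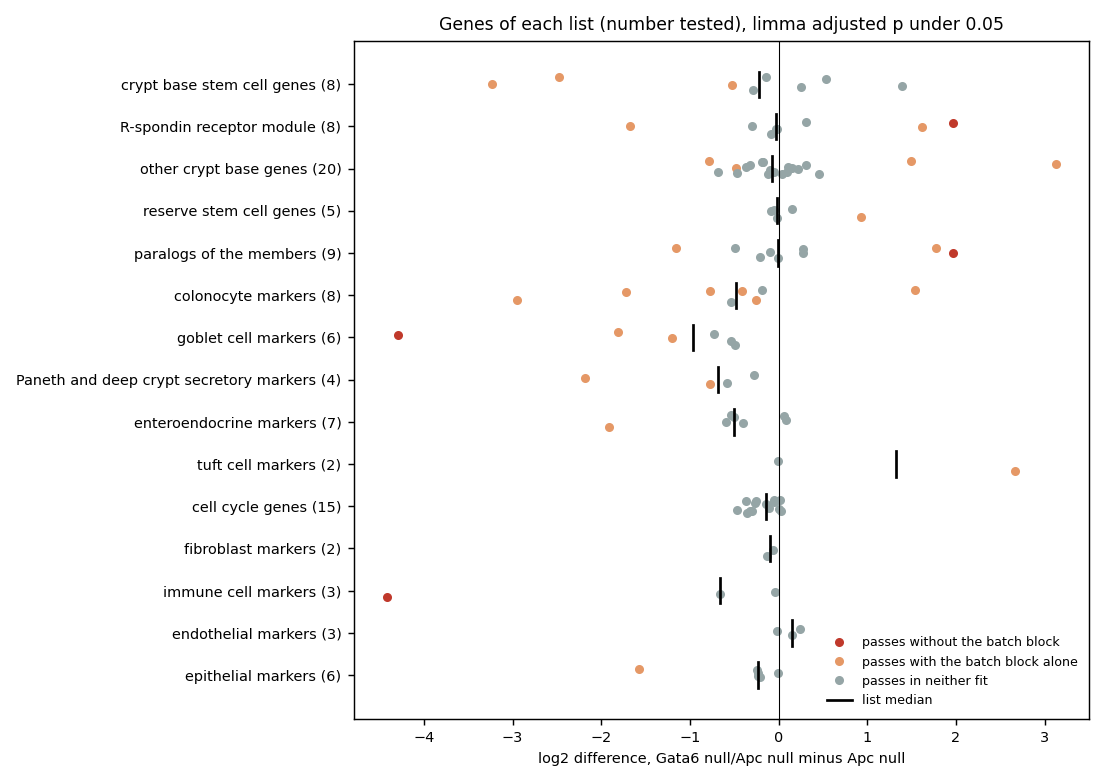
Log2 difference (horizontal axis) of each gene tested, by list (rows, with the number tested in brackets). Bars mark list medians and colours mark genes past a limma adjusted p of 0.05 without the batch block, with it alone, or in neither fit. The crypt base stem cell genes spread from -3.24 to 1.39, the colonocyte markers from -2.95 to 1.53 and the cell cycle genes from -0.46 to 0.03.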

How the data were processed

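The authors deposited 1 log2 value per probe set and array. The submitters' processing notes name RMA and affy as tools, with no versions. Per the labels' protocols, 25 ng of total RNA was amplified and 8 µg of cDNA was labelled with biotin. RMA removes array-wide shifts and compresses low values towards a floor. The number of arrays limits the precision, with array medians of 4.91 to 5.04.

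Of 45141 probe sets, 104 controls were left out. Gene names came from the platform's annotation table, with 1 gene for 28898 probe sets, several for 551 and none for 15588. Symbols were checked for 28689 against RefSeq, and 0 changed. Each of 17097 genes was represented by its brightest probe set, and 11874 with a mean of at least 4.45, the 40th percentile, were tested. No per-sample column was left unused.

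The groups were set against each other in limma 3.58.1 under R 4.3.3, by lmFit and a moderation with mean-variance trend (eBayes), two-sided, with Benjamini-Hochberg adjustment over all genes. A second fit covered all 45037 probe sets. Every SE is of the moderated fit without a batch term, which has 2 residual degrees of freedom. The p-values measure the spread between these samples, which the series text calls biological replicates. The batch letter is shared by 1 array of each genotype, and the batch differences of the genotypes correlated at 0.675 across genes. The fit with that letter as a block, with 1 residual degree of freedom, is given beside results whose call it changes. Alternatives were other filters, probe set rules and moderation, and each array left out.

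Members and lists were chosen with earlier results of these data known. Named genes were all members and, per list, up to 4 genes past the threshold in either fit, or the smallest p where none passed, the 5 genes nearest to Lgr5 and the targeted Gata6 and Apc. Rnf43, Lrp5, Lrp6, Rspo4, Sox9, Cd44, Lrig1, Axin2, Ephb3, Bmi1, Hopx, Tert, Krt19, Msi2, Igfbp4, Car1, Car2, Cd68, Csf1r, Sh2d6 and dim markers were named after their values were seen.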

Additional observations from a re-analysis of the deposited data

How the results depend on the processing

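Of the alternative values of member genes, 74 kept their direction and their side of the threshold, 4 came to pass and 2 turned sign; of those of member probe sets, 124, 6 and 5 did. With the batch letter as a replicate block, 3 member genes, 6 member probe sets, 25 listed genes and 817 genes passed, against 0, 0, 3 and 77 without it. That fit rests on 1 residual degree of freedom and changed the call of no member other than Lgr5, Prom1, Aqp4 and the second Smoc2 probe set. With 1 sample left out, 0 to 1 member genes, 2 to 7 listed genes and 33 to 130 genes passed; the remaining sample of its group is then assumed to vary like the other group. The single member call was Aqp4 without the Gata6 null/Apc null sample of batch B. Across these fits Lgr5 ranged from -3.05 to -1.89, its second probe set from -2.73 to -0.47, Aqp4 from -4.26 to -2.22, Prom1 from -0.67 to -0.38, Tnfrsf19 from 0.34 to 2.43 and Smoc2 from 0.19 to 0.87. Signs turned for others: Lgr4 ranged from -0.60 to 0.013, the Ascl2 probe set without a shared-sequence mark from -0.29 to 0.012, the dimmest Ascl2 probe set from -0.34 to 1.28, Olfm4 from -0.35 to 0.071, Cdt1 from -0.70 to 0.058 and Pdgfrb from -0.33 to 0.064. As the mean of all probe sets, Ascl2 differed by 0.063. The cause of these changes was not tested. The 4 arrays and the array floor limit what can be seen of dim genes such as Olfm4.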

Other observations

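Some crypt genes followed the batch letter more than the genotype. Igfbp4, an insulin-like growth factor binding protein of crypt base cells, read 7.91 in batch A and 10.51 in batch B in the samples labelled Gata6 null/Apc null, and 7.55 and 10.43 in the samples labelled Apc null. Tert, the telomerase subunit, was 1.63 higher in batch B in the samples labelled Gata6 null/Apc null and 1.72 higher in the samples labelled Apc null. Bmi1, a Polycomb subunit, went the other way, with batch B minus batch A at -1.10 for Gata6 null/Apc null and at -1.46 for Apc null. Lgr5 was 1.16 higher in batch B in the samples labelled Gata6 null/Apc null and 0.55 higher in the samples labelled Apc null. These batch differences were not tested.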
